A study of Trichoderma asperellum with 9 samples.

Results

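Among the gene models of the filamentous fungus Trichoderma asperellum, 37 of 9396 were lowered by copper ions and stayed near the control level with BCS. The members were chosen from the measured values themselves. A model was included when its mean FPKM (fragments scaled to model length and to library size) with copper gave a log2 ratio to the control mean of -1 or less, after adding 1 to each mean. The same log2 ratio for BCS against control had to lie within 0.5 of 0, every copper value had to lie below all 6 control and BCS values, and the control mean had to be at least 5 FPKM. The fall with copper and the flat response to BCS therefore come from the choice, and they are given below as a description without a test.

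The study profiled wild-type strain Ts93 of T. asperellum by RNA-seq of total RNA in 3 groups of 3 libraries. The groups were a control (written CK in the labels), growth with 0.5 mM BCS and growth with 1 mM copper ions. BCS is not spelled out in the labels; the abbreviation commonly stands for the copper chelator bathocuproine disulfonate. They give neither the medium nor the time of exposure, and do not say if libraries of the same group are separate cultures, and the spread between libraries may be technical. Library totals, recovered from the deposited values, ranged from 12335534 to 17142918 reads.

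Copper is a cofactor of respiratory cytochrome c oxidase, of copper-zinc superoxide dismutase and of the multicopper oxidases, among them the laccases that many fungi secrete. In excess it drives the formation of reactive oxygen species and displaces other metals from proteins. Fungi hold the free ion low with membrane transporters for uptake, pumps for export and small metal-binding proteins. In Saccharomyces cerevisiae, separate copper-sensing transcription factors act in copper shortage and in copper excess. A reference table of 12041 genes of strain FT101 held 0 of the 9396 identifiers, and the deposited values come without names, functions or positions. The members are therefore described by identifier, coding length and level, and no role is given to any of them.

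Of the 6181 models with a control mean of at least 5 FPKM, 224 had a log2 ratio of -1 or less for copper against control. BCS split these 224 models 3 ways: 95 were also lower with BCS by 0.5 or more on the log2 scale, 76 were higher by 0.5 or more, and 53 lay between. In 16 of the 53 a copper value reached a control or BCS value, which left the 37 members. Over all 7857 tested models, 5.71% had every copper value below the other 6. By identifier, 30 members were numbered models such as 93-3_5.6A4430 and 7 were supplementary ones such as Novel01132. The same rule turned round, for models raised by copper only, found 106. The balance between the lists depended on scaling, with 70 lowered and 61 raised models under median-of-ratios scaling and 65 and 70 under quantile normalization. The median log2 ratio of the 37 members for copper stayed between -1.40 on the TPM scale and -1.70 after quantile normalization.

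**Figure D1:**
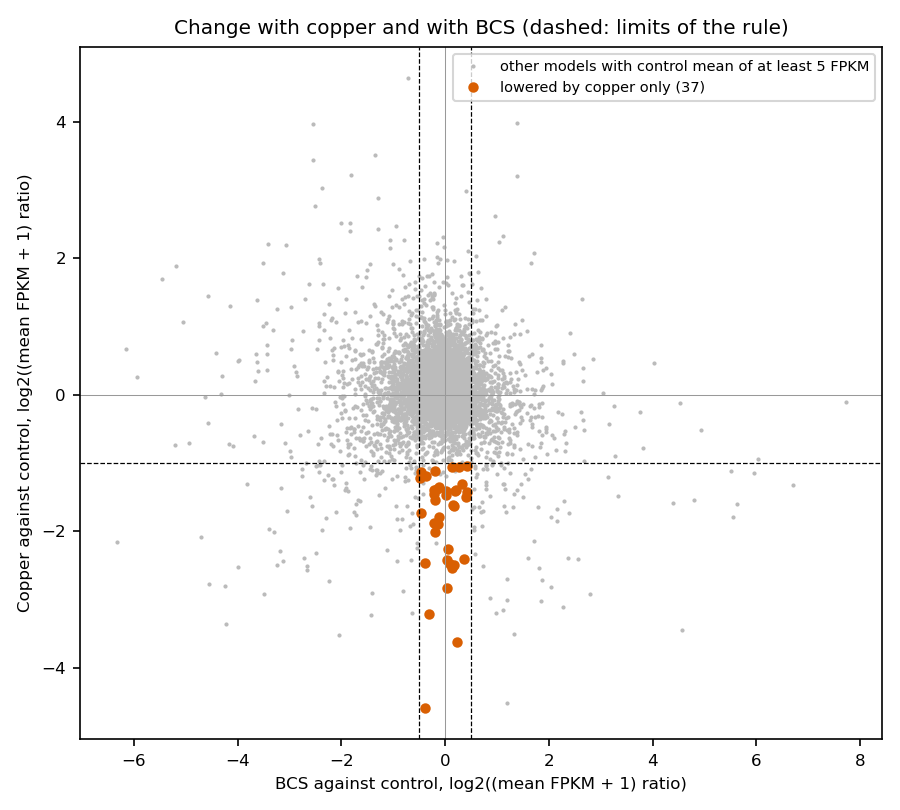
Each point is a model with a control mean of at least 5 FPKM. The horizontal axis is the log2 ratio of mean FPKM + 1 for BCS against control, the vertical axis the same for copper against control, and dashed lines mark the limits of the rule. The 37 members (orange) fill the lower part of the central strip, from -1.05 down to -4.58 on the vertical axis.

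The members ranged widely in level and in the depth of the fall. Control means ran from 5.72 to 4141 FPKM with a median of 85.7, compared with a median of 33.9 FPKM over the 6181 models. The control mean is part of the rule, so nothing is read from that difference. With copper the members kept between 2.75% and 47.7% of the control mean, with a median of 31.3%, and with BCS between 70.0% and 137.8%, with a median of 101.7%. The log2 ratio for copper against control was -2 or less in 12 members, between -2 and -1.5 in 8 and above -1.5 in 17. Its median was -1.54, where the median over all 7857 tested models (those with at least 1 FPKM in at least 3 libraries, which all 37 members passed) was 0.11. With BCS, 20 members lay above the control mean and 17 below, with a median log2 ratio of 0.02.

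The linear models of limma, fitted to log2(FPKM + 1) of all 9 libraries, gave the members a median log2 fold change of -1.52 for copper against control, with standard errors from 0.18 to 0.56. At an adjusted p under 0.05, limma called 34 of the 37 lower with copper than in the control, where 2.89% of all tested models were called lower. It called 34 lower with copper than with BCS, where 11.5% of all tested models were. For BCS against control limma called 0 of the 37 in either direction, against 17.1% of all tested models, and 1 member had an unadjusted p under 0.05 (voom on the recovered reads gave the same counts, 0 and 1). The rule used all 3 contrasts, so nothing is read from these counts. Without copper replicate 3 limma called 21 members lower than the control, and without BCS replicate 2 it called 2 members changed by BCS. The 3 members not called against the control were 93-3_5.6A0670, Novel01709 and Novel02057, singled out after their values were seen.

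With 1 FPKM added to each value, the lowest log2 ratio for copper was that of 93-3_5.6A4430, a model of 522 coding bases. The order depends on that added value: 93-3_5.6A6553 kept the lower share of its control mean, 2.75% against 4.01%, and had the lower limma log2 fold change with 0.1 FPKM added (-5.09 against -4.47) and with voom on recovered reads (-4.86 against -4.46). Model 93-3_5.6A4430 stood at 297, 312 and 1116 FPKM in control replicates 1 to 3, at 219.9, 674 and 424 with BCS and at 13.4, 37.02 and 18.8 with copper. The highest copper value lay 5.94 times below the lowest of the other 6, the widest gap of any member, although the control and BCS libraries themselves differed several-fold. Its mean fell from 575 ± 469 FPKM (SD, n = 3) to 23.1 ± 12.4 (SD, n = 3), a limma log2 fold change of -4.41 ± 0.56 (SE). Control replicate 3 set much of its control mean: without that library the control mean was 304 FPKM, the log2 ratio -3.66 for copper and 0.53 for BCS, so the model then stood outside the rule. It also left the rule without control replicate 1, control replicate 2 or BCS replicate 2, where its log2 ratio for BCS was -0.70, -0.68 and -0.83, so its response to BCS took either sign depending on the libraries used.

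With copper, 4 members lay below 1 FPKM in at least 1 library, among them the pair of short models described next. Another was 93-3_5.6A3626 (531 coding bases), with 0.46, 1.05 and 0.88 FPKM with copper. Model 93-3_5.6A6553 (282 coding bases) had 20.2, 4.55 and 26.9 FPKM in the control and 17.5, 25.3 and 18.4 with BCS. With copper it had 0.57, 0.85 and 0.00 FPKM, which are 2, 3 and 0 reads. It was the only member below 1 FPKM in all 3 copper libraries, and control replicate 2, at 22 reads, was the low value among the other 6. The count of 0 reads in copper replicate 3 allows up to 3 reads, so these levels are limited by depth. Model 93-3_5.6A5141 (324 coding bases) had 13.1, 5.58 and 35.9 FPKM in the control, 13.0, 21.0 and 9.63 with BCS and 1.501, 0.74 and 0.96 with copper. Its control libraries spanned 6.44-fold, the widest control range of any member, and that of 93-3_5.6A6553 came next with 5.91-fold. Model 93-3_5.6A5141 left the rule without control replicate 2, control replicate 3 or BCS replicate 2, with log2 ratios for BCS of -0.72, 0.59 and -0.64. The limma log2 fold changes for copper against control were -3.38 ± 0.50 for 93-3_5.6A6553 and -2.88 ± 0.51 for 93-3_5.6A5141 (SE).

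The 3 members next in order of the log2 ratio with 1 FPKM added were Novel01132, 93-3_5.6A1798 and 93-3_5.6A4870, which kept 13.1%, 15.0% and 17.6% of their control mean with copper. By share kept the order differs, since 93-3_5.6A3626, at a control mean of 8.87 FPKM, kept 8.97%. Novel01132, with a length of 1633 bases, had 54.6, 69.0 and 133.6 FPKM in the control, 38.8, 104.4 and 118.9 with BCS and 10.9, 13.3 and 9.59 with copper. The copper values were tight beside a more than 2-fold range in each of the other groups. Model 93-3_5.6A1798 (1758 coding bases) had 21.5, 73.1 and 20.2 FPKM in the control, 26.6, 44.7 and 54.0 with BCS and 6.78, 6.33 and 4.17 with copper. Here control replicate 2 was the high library, and without it the log2 ratio was -1.70 for copper and 0.97 for BCS. Model 93-3_5.6A4870 (327 coding bases) had 302, 212 and 648 FPKM in the control, 407, 431 and 476 with BCS and 45.6, 87.1 and 71.9 with copper. Its BCS libraries lay close together inside the control range, and all 3 copper libraries lay far below both.

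**Figure D2:**
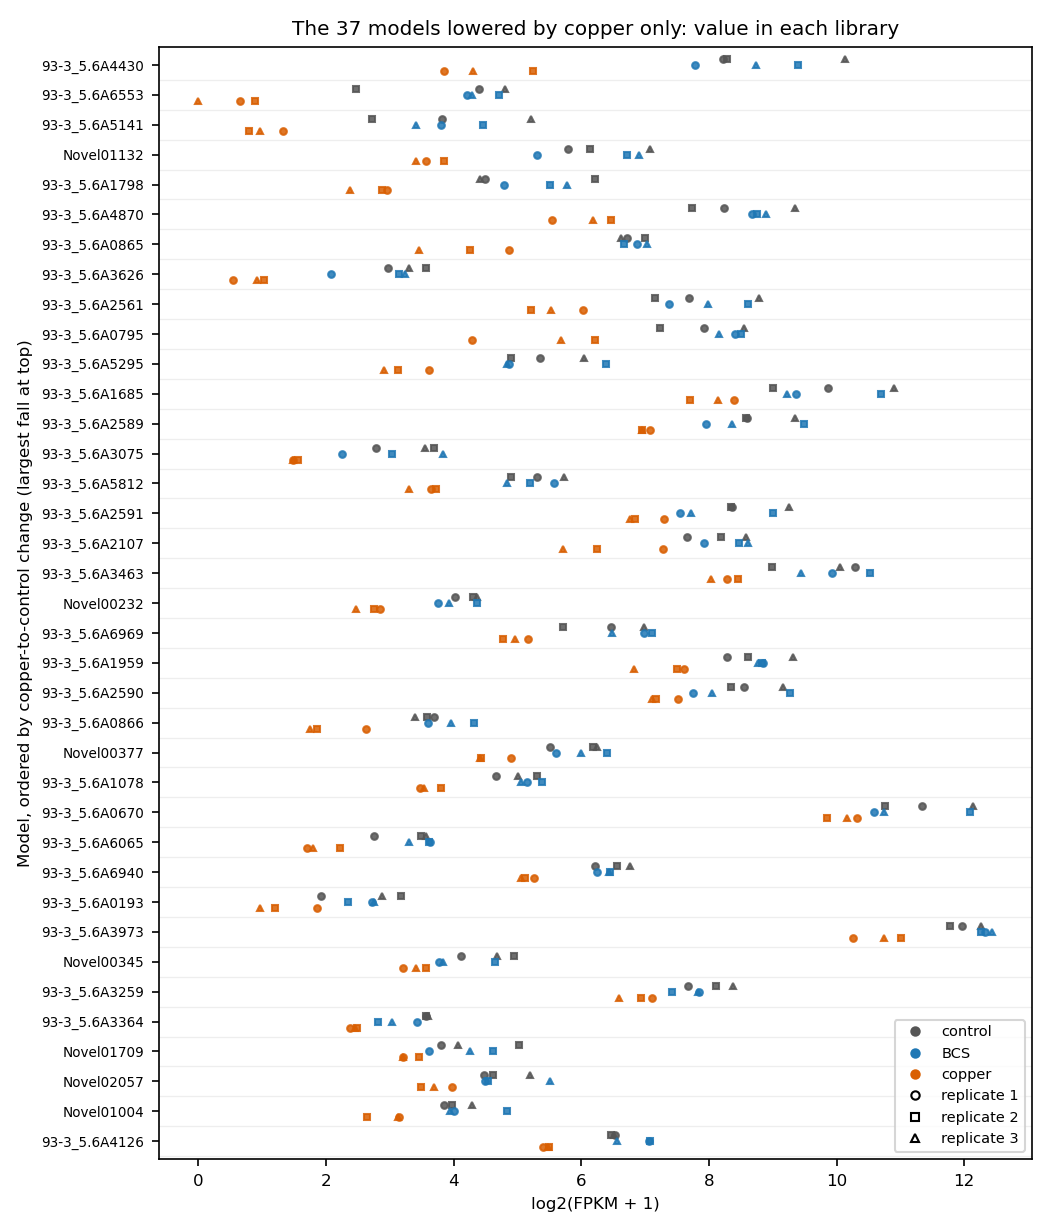
Each line is a member, ordered by the log2 ratio of mean FPKM + 1 for copper against control, lowest at the top, and each symbol is the log2(FPKM + 1) of a single library (grey control, blue BCS, orange copper; the symbol shape gives the replicate). Orange symbols lie left of all others on every line, as the rule requires, while grey and blue symbols are mixed on 34 of the 37 lines.

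A few members were highly abundant in the control. The most abundant was 93-3_5.6A3973, of only 201 coding bases. It had 4002, 3521 and 4900.1 FPKM in the control, 5159, 4904 and 5556 with BCS and 1227, 2065 and 1716 with copper. Every BCS value lay above every control value, by a narrow margin, and the copper mean was 40.3% of the control mean. Model 93-3_5.6A0670 (651 coding bases) had 2592, 1723 and 4507 FPKM in the control, 1544, 4349 and 1705 with BCS and 1278, 917 and 1151 with copper. Its lowest BCS library exceeded its highest copper library only 1.21-fold, and limma did not call it (log2 fold change -1.30 ± 0.43, SE). Model 93-3_5.6A1685 (921 coding bases) had 929, 513 and 1901 FPKM in the control, 659, 1659 and 596 with BCS and 335, 207.8 and 282 with copper. Its control and BCS libraries each spanned more than 2-fold, with the top values in control replicate 3 and BCS replicate 2, as in 93-3_5.6A0670.

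Model 93-3_5.6A3463 (1569 coding bases) was also abundant, with 1254, 509 and 1059.6 FPKM in the control, 978, 1471 and 694 with BCS and 309, 349 and 262 with copper. These members weigh heavily in the sum: all 37 together held 12355, 9929 and 19162 FPKM in the control libraries, 11864, 18137 and 12750 in the BCS libraries and 4532, 4781 and 4455 in the copper libraries. As a share of all FPKM this was 0.83% to 1.67% for the control, 1.08% to 1.62% for BCS and 0.41% to 0.46% for copper. The copper libraries were close to each other in this sum, and control replicate 3 and BCS replicate 2 stood above the rest of their groups.

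The 2 members with the narrowest control range were 93-3_5.6A3364 and 93-3_5.6A4126. Model 93-3_5.6A4126 (738 coding bases) had 91.5, 87.8 and 90.1 FPKM in the control and 41.2, 44.1 and 43.4 with copper, while BCS gave 132.0, 133.9 and 93.3. Its control range was 1.04-fold, and its copper mean, 47.7% of the control, was the highest share kept by any member. Model 93-3_5.6A3364 (849 coding bases) had 10.8, 10.9 and 11.1 FPKM in the control, 9.74, 6.03 and 7.17 with BCS and 4.201, 4.59 and 4.50 with copper. In this model the BCS values lay between the other groups without overlap. These models and 93-3_5.6A3973 made up the 3 of 37 members whose BCS and control values did not overlap, where 27.5% of all tested models had no such overlap. The rule asks for similar BCS and control means, so nothing is read from that difference.

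Apart from Novel01132, the supplementary members had log2 ratios for copper between -1.54 and -1.06. Novel00232 (1765 bases) had 15.2, 18.7 and 19.5 FPKM in the control, 12.5, 19.5 and 14.1 with BCS and 6.15, 5.77 and 4.55 with copper. Novel00377 (1740 bases) had 44.3, 71.4 and 75.02 FPKM in the control, 47.7, 83.9 and 62.5 with BCS and 28.7, 20.6 and 20.4 with copper. In both, the lowest value outside copper was at least 1.54 times the highest copper value. Novel01709 (1317 bases) had 12.9, 31.7 and 15.8 FPKM in the control, 11.2, 23.4 and 18.1 with BCS and 8.25, 9.96 and 8.22 with copper, a gap of only 1.12-fold. The 7 supplementary models were 18.9% of the members and 9.98% of the 6181 models with a control mean of at least 5 FPKM.

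For each limit, the nearest member inside it and the nearest non-member outside it were picked, so closeness in the limited quantity comes from the choice. Inside the limit on the fall stood 93-3_5.6A4126, with a log2 ratio of -1.05, and outside it Novel00236 with -0.99. Inside the lower limit on the BCS response stood Novel00345 with -0.48, and outside it Novel02349 with -0.53. In level the models on each side differed: control means were 89.8 FPKM for 93-3_5.6A4126 and 7.06 for Novel00236, and 23.6 for Novel00345 and 41.6 for Novel02349. At the upper limit 93-3_5.6A0866 had 0.43 and 93-3_5.6A2788, outside, 0.51. The member with the lowest control mean was 93-3_5.6A0193, with 5.72 FPKM, and 93-3_5.6A3898 met every other condition at 4.23 FPKM. Model 93-3_5.6A0193 also had the narrowest gap of all members, 1.05-fold between control replicate 1 (2.77 FPKM, 9 reads) and copper replicate 1 (2.64 FPKM, 8 reads), a difference of 1 read.

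Several members carried consecutive numbers. Models 93-3_5.6A2589, 93-3_5.6A2590 and 93-3_5.6A2591 formed a run of 3, and 93-3_5.6A0865 and 93-3_5.6A0866 a pair, so 5 of the 30 numbered members had a member at the next number up or down. Of the 60 places just above or below a numbered member, 6 (10%) held another member, which are 3 pairs counted from both sides. Members made up 0.43% of all 7043 numbered models, a base that includes models below the control limit of 5 FPKM. The runs were picked out after the values were seen, so nothing is read from the difference. No source used here says whether the numbers follow the order of genes along the genome. Over 5978 pairs of tested models 1 number apart, the log2 ratios for copper against control had a Spearman correlation of 0.12, and over 5911 pairs 2 apart it was -0.00. These pairs share the same libraries, so the values are a description.

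The run of 3 stood at similar levels per length, with ratios between its models from 0.74 to 1.57 in single libraries. In the control, 93-3_5.6A2589 (1227 coding bases) had 386, 381 and 651 FPKM, 93-3_5.6A2590 (1431 bases) had 372, 325 and 572, and 93-3_5.6A2591 (2526 bases) had 326, 324 and 611. With copper the same models had 134.2, 122.5 and 122.7 FPKM, then 181.3, 143.7 and 136.7, then 157.0, 113.3 and 107.9. With BCS they had 247, 717 and 327 FPKM, then 214.5, 619 and 265, then 185.0, 514 and 208.9, each highest in BCS replicate 2. All 3 models thus lay below every control and BCS value in every copper library, and control and BCS values overlapped. Over the 9 libraries their log2 values correlated at r = 0.97 to 0.99, which the rule largely fixes, since it chose all 3 for low copper values. Deviations from the group means, which carry no difference between groups, correlated at r = 0.97 to 0.99 as well, while those of 93-3_5.6A0865 and 93-3_5.6A0866 correlated at 0.59. The log2 ratios for copper were -1.89, -1.45 and -1.73. The models numbered just before and after, 93-3_5.6A2588 and 93-3_5.6A2592, had 0.09 and -0.01, so the lower level with copper stopped at both ends of the run. Without the sequences it could not be checked whether these models share reads through similar copies.

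**Figure D3:**
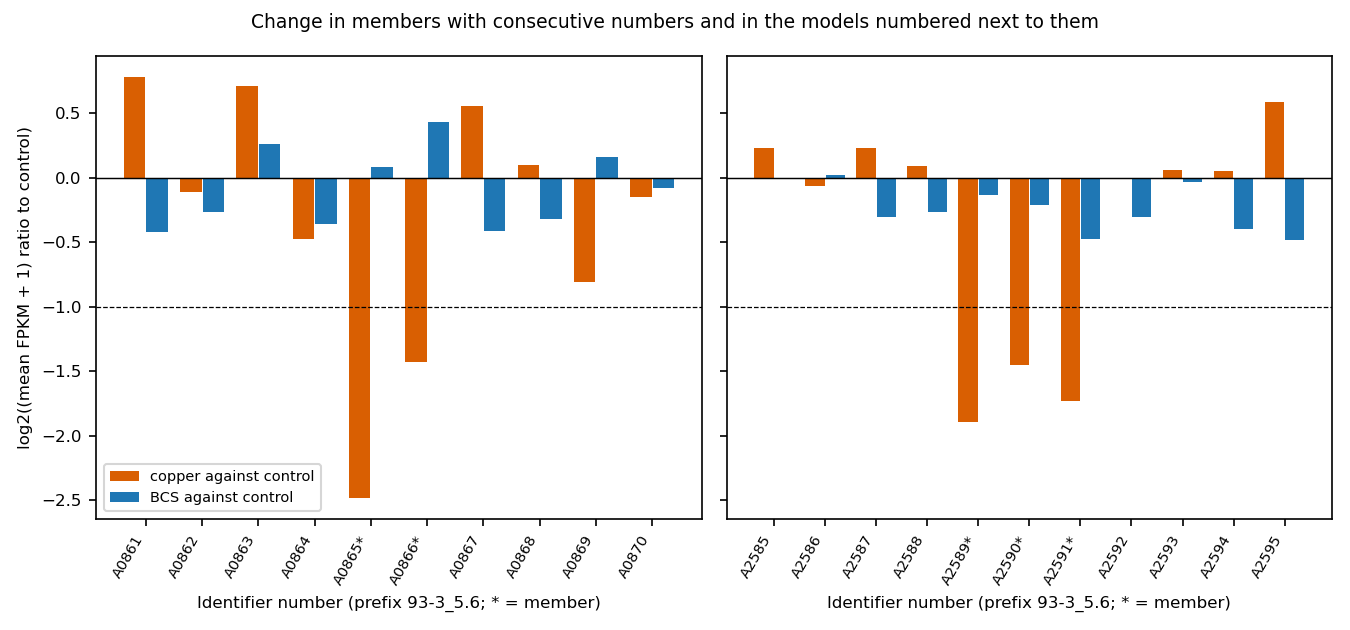
Bars give the log2 ratio of mean FPKM + 1 to the control, for copper (orange) and BCS (blue), in members with consecutive numbers (starred) and in the 4 models numbered before and after them. The dashed line marks -1. The 3 starred models on the right reach -1.45 to -1.89 with copper between unstarred models that stay between -0.06 and 0.59.

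The pair 93-3_5.6A0865 and 93-3_5.6A0866 differed in level but not in direction. Model 93-3_5.6A0865 (1377 coding bases) had 103.9, 126.2 and 97.0 FPKM in the control, 115.7, 101.0 and 130.1 with BCS and 28.1, 18.1 and 9.96 with copper. Its control and BCS libraries were among the tightest of the strongly lowered members, and its limma log2 fold change was -2.58 ± 0.30 (SE). Model 93-3_5.6A0866 (1188 coding bases) had 11.9, 10.9 and 9.55 FPKM in the control, 11.1, 18.9 and 14.6 with BCS and 5.19, 2.61 and 2.36 with copper. In both models copper replicate 1 was the highest of the copper libraries. Of the models on either side, 93-3_5.6A0864 was also lower with copper, by less, with a log2 ratio of -0.48, and 93-3_5.6A0867 was higher, with 0.56. A little further on, 93-3_5.6A0869 had 190.0, 168.4 and 208.0 FPKM in the control, 202.7, 236.1 and 193.5 with BCS and 103.8, 115.4 and 103.7 with copper. It missed the limit on the fall, with -0.80.

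That model was also among the 3 non-members most like the members, by the correlation of log2 values over the 9 libraries with the mean standardised profile of the members. It stood at r = 0.97, as did 93-3_5.6A4257 (2364 coding bases), and Novel00236 at 0.96. Model 93-3_5.6A4257 fell from a control mean of 454 ± 179 FPKM to 48.9 ± 8.64 with copper (SD, n = 3 each), a limma log2 fold change of -3.13 ± 0.31 (SE). It missed the rule because its BCS mean was 290 ± 87.9 FPKM (SD, n = 3), a log2 ratio of -0.65.

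Within groups, most pairs of members did not vary closely together. The deviations of log2(FPKM + 1) from the group mean correlated with a median r of 0.26 over the 666 pairs of members, and 0.22 over all pairs of the 6181 models. Pairs at r = 0.8 or more made up 7.96% and 7.45%. These deviations are taken from the values that the rule used, so nothing is read from the comparison with the 6181 models. Average linkage at r = 0.7, a level chosen after the values were seen, gave 9 sets of at least 2 members and 5 members alone. The largest set held 8 models: the run of 93-3_5.6A2589 to 93-3_5.6A2591, with 93-3_5.6A2561, 93-3_5.6A5295, 93-3_5.6A1685, 93-3_5.6A0670 and Novel01004. Its models were high together in control replicate 3 and BCS replicate 2, with median deviations of 0.60 and 0.92 log2 units, where the 6181 models had medians of 0.01 and 0.26. A set of 3, made of 93-3_5.6A4870, 93-3_5.6A0795 and 93-3_5.6A3973, had its low copper value in replicate 1, with a median deviation of -0.52, while the set of 8 was at 0.28 there. The sets were formed from these same deviations, so a pattern shared within a set comes from the grouping and is given as a description.

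**Figure D4:**
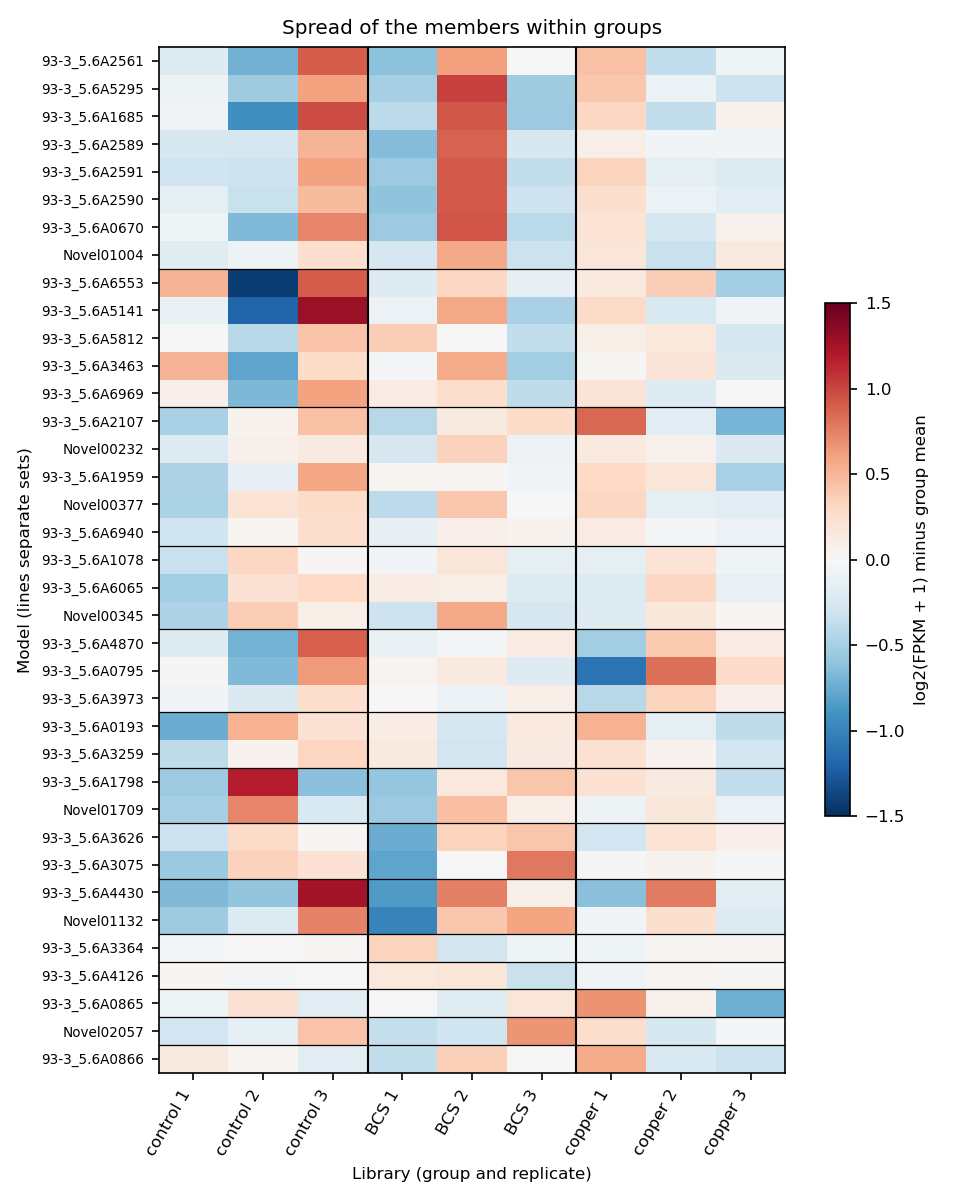
Rows are the 37 members, columns the 9 libraries, and the colour gives log2(FPKM + 1) minus the mean of the library's own group (red above, blue below). Horizontal lines separate the sets formed from these same values at r = 0.7. The 8 models at the top are red in control replicate 3 and BCS replicate 2, and the set of 5 below them is also above its group means there, with medians of 0.60 and 0.31.

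Among the members, control replicate 3 was most often the highest control library. It was the highest control library for 26 of the 37 (70.3%), compared with 33.8% of the 6181 models, and the median deviation of the members there was 0.32 log2 units. The rule used the control values, so nothing is read from that difference. When the rule was applied without it, 41 models met the rule and 27 of the 37 members were among them. Left out were 93-3_5.6A4430, 93-3_5.6A6553, 93-3_5.6A5141, 93-3_5.6A4870, 93-3_5.6A2561, 93-3_5.6A0795 and 93-3_5.6A6969, whose BCS log2 ratio then passed 0.5, and 93-3_5.6A0670, Novel02057 and Novel01004, whose copper log2 ratio then lay above -1. In the BCS group, replicate 2 was the highest library for 22 members (59.5%), compared with 70.7% of the 6181 models. In the copper group replicate 3 was the highest for 0 members, compared with 19.3% of the 6181 models, and replicate 1 for 21. The BCS and copper values were also used by the rule, so nothing is read from these shares.

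A group of 12 members met the rule under 3 other scalings and whichever of the 9 libraries was left out. These were Novel01132, 93-3_5.6A0865, 93-3_5.6A5812, 93-3_5.6A2107, 93-3_5.6A3463, Novel00232, 93-3_5.6A1959, Novel00377, 93-3_5.6A1078, 93-3_5.6A6065, 93-3_5.6A6940 and 93-3_5.6A3973. Among them 93-3_5.6A6940 (612 coding bases) had 73.4, 92.8 and 107.8 FPKM in the control, 74.8, 86.0 and 85.1 with BCS and 37.5, 33.8 and 32.3 with copper. Model 93-3_5.6A1078 (435 coding bases) had 24.2, 38.5 and 31.2 FPKM in the control, 34.5, 40.6 and 32.1 with BCS and 10.1, 13.0 and 10.6 with copper. In both, the copper libraries were close together, and the control and BCS ranges overlapped without being the same.

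The rule did not use model length. Coding lengths of the 30 numbered members ran from 201 to 3171 bases with a median of 855, compared with 1151 over the 5564 numbered models with a control mean of at least 5 FPKM. Coding lengths under 350 bases were found in 5 members, namely 93-3_5.6A3973, 93-3_5.6A0193, 93-3_5.6A6553, 93-3_5.6A5141 and 93-3_5.6A4870. That is 16.7% of the numbered members and 4.26% of the 5564 models. The limit of 350 bases was not set in advance, so nothing is read from the difference. Lengths of the 7 supplementary members had a median of 1502 bases, compared with 1977 over the 617 supplementary models of that pool. The spread within groups was larger for the members, with a median SD of 0.46 log2 units for the control, 0.40 for BCS and 0.27 for copper, compared with 0.25, 0.33 and 0.17 over the 6181 models. This spread is taken from the values that the rule used, so nothing is read from the difference. Members at low counts are less precise: reads per member and library ran from 0 to 10261 with copper and from 9 to 49139 in the control.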

How the data were processed

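RNA was extracted with Trizol and libraries made with a NEBNext Ultra kit, per the labels' protocols. The authors deposited FPKM values for 9396 models, with no pooling. The submitters' processing notes name DESeq 1.18.0, HTSeq 0.6.1, TopHat2 2.0.12 and Bowtie2 2.2.3 without saying what each did. They list the mouse build mm8, which cannot be that of a fungus, so the genome and annotation are unknown here.

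Reads and lengths were recovered from the FPKM steps: every value above 0 was whole within 0.01 reads once a length was chosen, which is easy to meet at few reads, and the recovered reads made up 99.95% to 99.98% of the totals. Fitted lengths of numbered models were multiples of 3 in 99.6% of cases, and they are taken as coding lengths. For numbered models with fewer than 50 reads a multiple of 3 was preferred, which raises that share. The limit given for a count of 0 reads covers counting error only. The ± values are SDs over libraries or limma standard errors. No identical libraries were seen (chi-square per degree of freedom between libraries of a group 26.9 to 256, where counting noise gives about 1).

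Tests were made in R 4.3.3 with limma 3.58.1 and its trend option, on log2(FPKM + 1) of 7857 models in all 9 libraries, with no block and Benjamini-Hochberg adjustment over all of them. Fold changes on that scale understate changes of low models. The scripts were tested on simulated data. For copper against control, all tested models had a median log2 fold change of 0.13, which median-of-ratios scaling moved to -0.02. Alternatives were other scalings, pseudocounts, filters and limits, voom, a replicate block and each library left out.

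Named models were chosen by rule: the lowest log2 ratios for copper, the highest control means, the leading supplementary models, the extremes of gap and control range, those next to each limit and the 3 non-members most like the members. Consecutive numbers, their neighbours, the sets, the models left out with control replicate 3 and the 12 stable models, of which 2 are given in full, were chosen after values were seen. The members and lists were chosen with earlier results of these data known. Gene lists for copper handling and stress could not be filled, since no identifier matched. Whether replicate numbers pair the libraries could not be settled, and the main fit used no pairing.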

Additional observations from a re-analysis of the deposited data

How the results depend on the processing

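The number of members moved with scaling and with the limits: 70 after median-of-ratios scaling and 65 after quantile normalization (each with 36 of the 37), 34 on the TPM scale (32 of them members), 20 and 65 with limits of -1.5 and -0.8 on the copper ratio, and 24 and 64 with limits of 0.25 and 0.75 on the BCS ratio. Leaving out a library gave 38 to 57 models, the latter without control replicate 2. Members called lower with copper numbered 21 to 36 relative to the control and 28 to 35 relative to BCS, and 0 to 2 were called for BCS. Over all models the calls ranged from 289 to 1135, from 755 to 2282 and from 1814 to 3743 for copper and for BCS relative to the control and for copper relative to BCS; calls moved by over 1.5 times without any copper library, control replicate 3 (463) or BCS replicate 2 (1135) in the first, without any BCS library in the second and without copper replicate 3 in the last. Median log2 fold changes of the members ranged from -1.66 to -1.38, from -0.18 to 0.23 and from -1.712 to -1.503 in the same order, and no cause was tested. With copper, rises made up 69.7% of all calls as deposited, 49.0% after median-of-ratios scaling, 51.8% after quantile normalization and 82.6% on the TPM scale; in copper against BCS 67.4%, 49.5%, 51.6% and 72.3%. With the replicate number as a block, 32 members were called lower with copper than in the control. Lower than with BCS were 33, and 0 were called for BCS. All calls then numbered 556, 1152 and 2435. In 1 of 9 same-numbered pairs of libraries the deviations correlated over 0.1 (-0.28 to 0.21). Differently numbered pairs ranged from -0.31 to 0.33. With 3 libraries per group, these values cannot settle whether the numbers pair libraries. Depth limits the members with few reads, such as 93-3_5.6A0193 and 93-3_5.6A6553.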
